A study of Homo sapiens with 12 samples.

Results

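The genes described here were 49 genes that build and move chromosomes in mitosis, taken from a written list of kinetochore, spindle and chromosome segregation genes that leaves out the mitotic kinases and cyclins. All 49 were found among the 54127 genes counted, and all 49 were among the 14505 genes with enough reads to be tested. Values were RNAseq read counts from C4-2, an established prostate cancer cell line derived from LNCaP, grown in RPMI with serum. 6 samples labelled DMSO received the vehicle and 6 labelled PBKi received 1 µM of HI-TOPK-032, which inhibits the mitotic kinase PBK, for 6 h according to the methods of the study. Both groups were the same line in the same medium, and the labels name no genetic change in either. No source used here says whether replicates came from separate cultures, so p-values measure the spread between these samples, which may be technical.

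Chromosomes are pulled apart by microtubules that attach to kinetochores, protein assemblies built in layers on centromeres. The inner layer sits on nucleosomes that carry the histone variant CENPA, and the outer layer holds the microtubule through the NDC80 complex. Motor proteins of the kinesin family and microtubule-binding proteins shape the spindle, condensin compacts the chromosomes, and the anaphase-promoting complex starts their separation. Transcripts of many of these genes peak in G2 and mitosis, so in cultured cells their level depends on how many cells are dividing.

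Their promoters are shown first because many genes of this kind share short elements near the start of transcription. The cell cycle genes homology region (CHR), which binds MuvB complexes, was searched as TTTGAA or TTCGAA, and the CCAAT box, which binds NF-Y, as CCAAT, each on both strands. RefSeq promoter windows of GRCh38.p14, from 250 bases before to 50 bases after a start, were given for 44 of the 49 members, in 48 windows. A CHR match was found in 35 of the 48 windows (72.9%), against 16.4% of all 35116 windows of that length. A CCAAT match was found in 33 of them (68.8%), against 34.6% of all windows. Both were present in 27 windows (56.2%), against 6.38% of all. Among the 4 windows of members that were not called changed, 3 held both matches. The last 120 bases before the start follow, 5′ to 3′ on the gene's strand, for the most lowered called member with a window in each role, wherever that stretch held a match. Capitals mark the matches, and matches may share a base.
CENPK, minus strand, chr5:65563169-65563288: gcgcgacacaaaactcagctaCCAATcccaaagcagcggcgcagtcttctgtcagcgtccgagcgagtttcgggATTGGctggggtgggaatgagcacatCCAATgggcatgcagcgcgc
KIF15, plus strand, chr3:44761674-44761793: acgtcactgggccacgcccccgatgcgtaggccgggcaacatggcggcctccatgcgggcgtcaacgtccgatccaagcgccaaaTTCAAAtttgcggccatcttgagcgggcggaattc
HMMR, plus strand, chr5:163460512-163460631: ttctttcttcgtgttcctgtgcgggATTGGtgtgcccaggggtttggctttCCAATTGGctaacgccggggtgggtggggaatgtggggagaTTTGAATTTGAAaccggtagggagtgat
CDCA8, plus strand, chr1:37692396-37692515: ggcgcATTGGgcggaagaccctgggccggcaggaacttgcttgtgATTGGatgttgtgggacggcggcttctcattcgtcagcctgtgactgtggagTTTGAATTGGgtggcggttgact
ECT2, plus strand, chr3:172750606-172750725: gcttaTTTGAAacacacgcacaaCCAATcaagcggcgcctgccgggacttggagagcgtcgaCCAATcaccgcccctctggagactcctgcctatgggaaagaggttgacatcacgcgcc
NCAPH, plus strand, chr2:96335646-96335765: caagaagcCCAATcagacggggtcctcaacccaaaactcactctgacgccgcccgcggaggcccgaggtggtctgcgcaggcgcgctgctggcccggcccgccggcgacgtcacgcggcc
HMMR held a pair of CHR matches side by side, and in CDCA8 a CHR match shared its last base with an inverted CCAAT box. CENPK and NCAPH held only CCAAT matches and KIF15 only a CHR match. The ECT2 stretch belongs to the more upstream of its 2 listed starts. For NUF2 and MAD2L1, the lowest of their roles, the CHR match lay after the start, from base 17 and base 25. A match describes these letters and does not show that a factor binds there.

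The segregation genes were lower in PBKi as a group. In the quasi-likelihood fit of edgeR, after Benjamini-Hochberg adjustment over all genes tested, 44 of the 49 passed an adjusted p of 0.05 as lower, none as higher, and 5 were not called. Across all genes tested, 21.5% were called lower and 20.1% higher, that is 3125 and 2921 genes. Scaled to total counts in place of TMM, these were 2402 lower and 3602 higher, and 41 members were called lower and 0 higher. The direction was shared more widely than the calls, since all 49 fitted log2 fold changes (PBKi against DMSO) were below 0. Of all 14505 genes tested, 7521 were below 0. The falls were modest, with a median log2 fold change of -0.32 for the members and -0.01 for all genes tested. 5 members fell by more than 0.5 on the log2 scale, 37 had a log2 fold change between -0.5 and -0.2, and 7 one nearer 0. In bulk RNA, fewer cells in G2 or mitosis and less RNA in each such cell cannot be told apart.

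**Figure D1:**
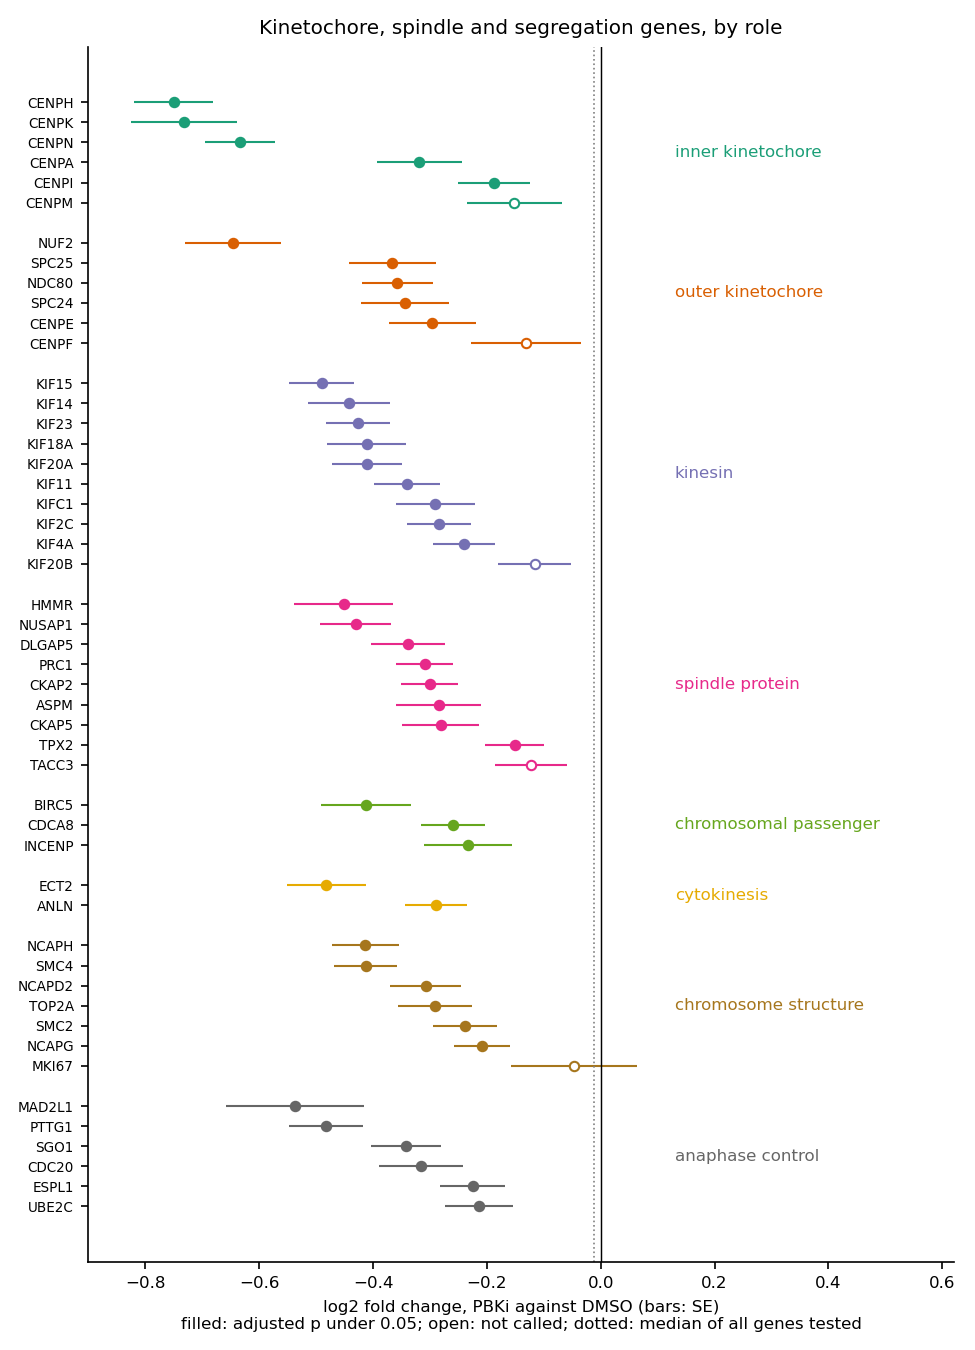
Log2 fold change of each of the 49 genes, PBKi against DMSO, with the standard error as a bar, grouped by role. Filled points passed an adjusted p under 0.05 and the 5 open points did not, and every point lies left of 0, from -0.75 for CENPH to -0.05 for MKI67.

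For 26 of the 49 members, all 6 PBKi samples lay below all 6 DMSO samples, which held for 9.68% of all genes tested. Summed over the members, the level was 7986 to 8316 CPM (reads scaled to library size with TMM factors) in DMSO and 6059 to 7163 CPM in PBKi. That is 0.799% to 0.832% of normalised reads in DMSO and 0.606% to 0.716% in PBKi, with no overlap. PBKi replicate 5 had the highest PBKi level of 32 members, and PBKi replicates 3 and 6 had the lowest level of 18 and 19 members. PBKi replicates 3 and 6 also had the largest share of reads outside genes, at 9.3% and 8.83%, against 5.74% to 6.96% in the other 10 samples. Without those samples 40 members were called lower and the median of the members was -0.26. Members are well expressed genes, and among the 7835 genes tested with at least the mean level of the lowest member, 27.6% were called lower and 13.4% had groups apart in that direction.

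**Figure D2:**
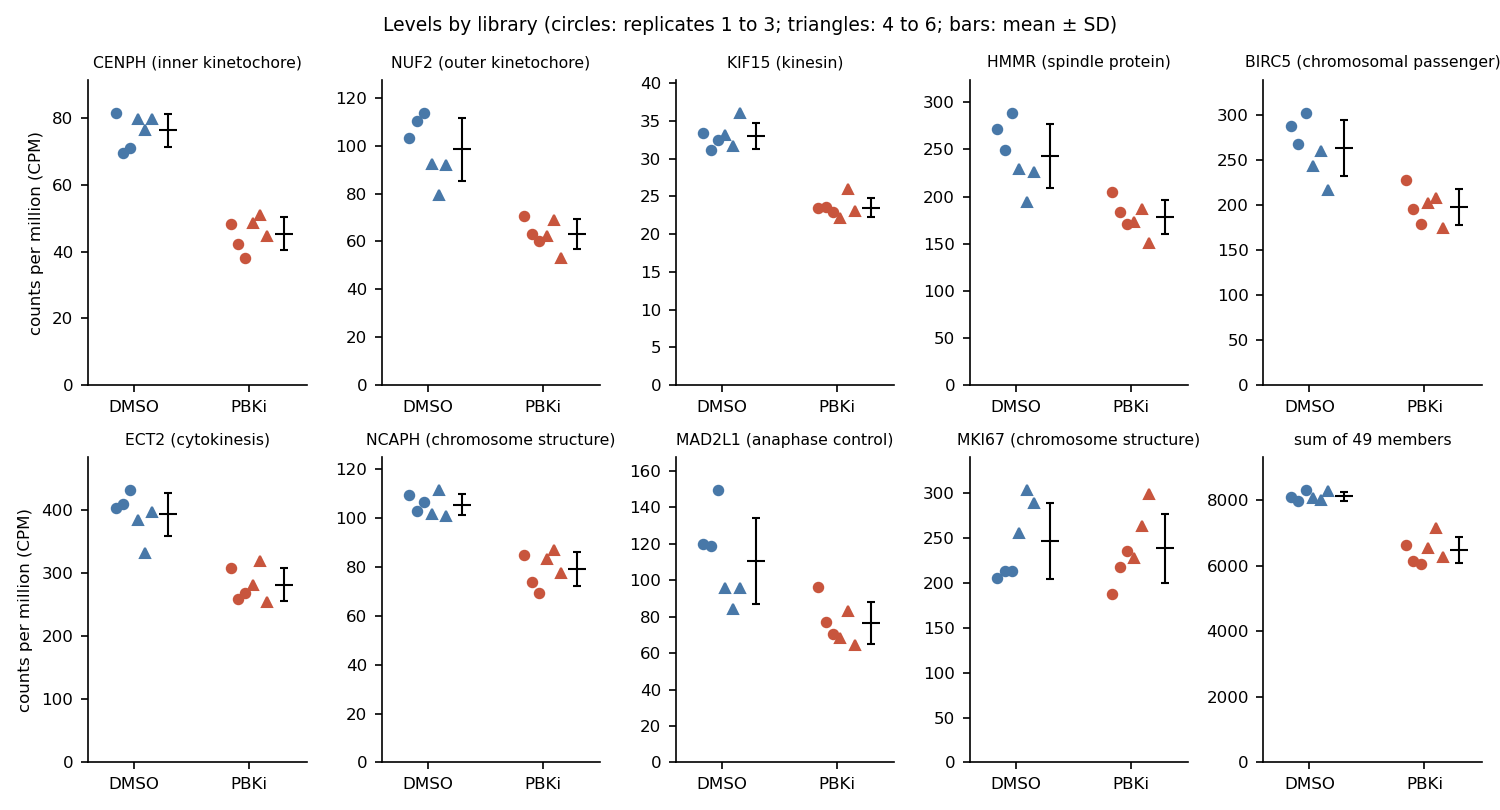
CPM in each of the 12 libraries for the lowest gene of each role, for MKI67 and for the sum of the 49 members, with the mean and SD beside each group (circles are replicates 1 to 3, triangles 4 to 6). The sum lies between 6059 and 7163 CPM in PBKi and between 7986 and 8316 CPM in DMSO, and MKI67 overlaps throughout.

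Reads on genes ranged from 9663203 to 28029908 per sample in DMSO and from 13122415 to 22817803 in PBKi, which gave the members 210 to 14106 reads each per sample. Of the prostate epithelial markers, EPCAM, KRT8 and KRT18 had overlapping groups, with EPCAM at 121 to 135 CPM in DMSO and 116 to 125 CPM in PBKi. 5 markers lay lower in PBKi without overlap. KLK3 was at 2677 to 3145 CPM in DMSO and 696 to 1360 CPM in PBKi, KLK2 at 389 to 517 and 93.9 to 203 CPM, and TMPRSS2 at 150.3 to 243 and 59.7 to 99 CPM. HOXB13 was at 264 to 343 and 166 to 229 CPM, and FOXA1 at 350.2 to 405 and 269 to 319 CPM. FOLH1 lay higher in PBKi without overlap, at 461 to 547 CPM in DMSO and 595 to 699.5 CPM in PBKi. The part of these differences in the results on the members was not tested. Immune markers summed to at most 0.738 CPM and basal markers to at most 1.73 CPM. Stromal markers summed to 21.1 to 25.5 CPM in DMSO and 19 to 24.4 CPM in PBKi, mostly from COL1A1, and endothelial markers to 4.03 to 7.25 CPM and 3.09 to 4.63 CPM, while DCN, LUM and CDH5 stayed under 0.3 CPM.

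Among the 6 inner kinetochore genes, 5 were called lower, and their median log2 fold change of -0.48 was the lowest of the 8 roles. CENPH (ENSG00000153044, GRCh37 chr5:68485401-68506184, plus strand), a subunit of the CENP-H/I/K/M assembly, lay at 69.6 to 81.7 CPM in DMSO (median 78.1) and 38 to 50.9 CPM in PBKi (median 46.5). Every PBKi sample was below every DMSO sample. The log2 fold change was -0.75 (SE 0.07, adjusted p = 2.08e-07, edgeR), which is 40.6% lower. CENPK (ENSG00000123219, chr5:64813593-64858995, minus strand), its partner in the same assembly, lay at 30.1 to 45.6 CPM in DMSO (median 36.1) and 18.6 to 25.1 CPM in PBKi (median 22.5). Here too the groups did not overlap, with a log2 fold change of -0.73 (SE 0.093, adjusted p = 7.93e-06, edgeR).

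The other 2 subunits of that assembly had smaller log2 fold changes. CENPI was called lower at -0.19 (adjusted p = 0.0256, edgeR), and that call was lost when any of 6 samples was left out. CENPM was not called. It lay at 34 to 52.6 CPM in DMSO (median 41.8) and 35.4 to 43.6 CPM in PBKi (median 37.2), so all 6 PBKi samples lay above the lowest DMSO sample. Its log2 fold change was -0.15 (SE 0.083, adjusted p = 0.152, edgeR), and without DMSO replicate 6, the lowest of its group, it was -0.19 and called (adjusted p = 0.04, edgeR). CENPN, which reads the CENPA nucleosome, was lower at -0.63, with no overlap between 185 to 223 CPM in DMSO and 118 to 147 CPM in PBKi. CENPA itself was lower at -0.32.

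In the outer kinetochore, 5 of 6 genes were called lower, including all 4 subunits of the NDC80 complex. NUF2 (ENSG00000143228, chr1:163236366-163325554, plus strand) lay at 79.2 to 114 CPM in DMSO (median 97.8) and 53.2 to 70.7 CPM in PBKi (median 62.7). The ranges did not touch, and the log2 fold change was -0.65 (SE 0.084, adjusted p = 1.05e-05, edgeR). SPC25 lay at 29.2 to 39.8 CPM in DMSO (median 31.7) and 23.9 to 28.3 CPM in PBKi (median 25.6), again with no overlap. Its log2 fold change was -0.37 (SE 0.077, adjusted p = 0.000998, edgeR), beside -0.36 for NDC80 and -0.34 for SPC24. Of the exonic stretches of SPC25 as long as a read (40 bases), 11.2% also occur in transcripts of genes at other places.

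Per kilobase of exon, the DMSO levels of the complex were 32.4 CPM for NDC80, 29.3 for NUF2, 18.1 for SPC25 and 17 for SPC24. In PBKi they were 25.3, 18.8, 14.2 and 13.4 CPM per kilobase in the same order. NDC80 and NUF2, which form the microtubule-binding arm, were thus measured above SPC24 and SPC25, which form the base, in both groups, by exon lengths of a later annotation than the one counted. Differences in fall between subunits were not tested.

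CENPE, a kinesin of the kinetochore corona, was lower at -0.30. CENPF, a large corona protein, was not called. It lay at 271 to 391 CPM in DMSO (median 304) and 235 to 341 CPM in PBKi (median 280). The ranges overlapped for most samples, although PBKi was the lower in each of the 6 same-numbered pairs. No label ties such pairs to a shared culture, so whether they are paired is not known. A fit with replicate number as a block, given with the processing alternatives below, did call CENPF lower. The log2 fold change of CENPF was -0.13 (SE 0.096, adjusted p = 0.29, edgeR).

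Of the 10 kinesins, 9 were called lower and in 8 the groups did not overlap. KIF15 (ENSG00000163808, chr3:44803213-44914868, plus strand), which can stand in for KIF11 in keeping the spindle bipolar, lay at 31.1 to 36.1 CPM in DMSO (median 32.8) and 22.1 to 26 CPM in PBKi (median 23.3). These groups were tight and apart, with a log2 fold change of -0.49 (SE 0.058, adjusted p = 3.12e-06, edgeR). KIF14, which acts in cytokinesis, lay at 65.2 to 87 CPM in DMSO (median 76.1) and 49.9 to 62.4 CPM in PBKi (median 55.9). Its log2 fold change was -0.44 (SE 0.072, adjusted p = 1e-04, edgeR), also without overlap.

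KIF23 and KIF20A, motors of the central spindle, were lower at -0.43 and -0.41, and KIF18A, which damps chromosome movements, at -0.41. KIF11, the motor that pushes spindle poles apart, was lower at -0.34. The minus-end motor KIFC1 at -0.29, the microtubule depolymerase KIF2C at -0.28 and the chromosome-bound KIF4A at -0.24 changed least among the called kinesins. For KIF4A, 19.7% of such stretches also occur in transcripts of other genes, mainly its copy KIF4B, and reads from them could be lost or shared.

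KIF20B, a kinesin of late cytokinesis, was the kinesin not called. It lay at 75.1 to 101 CPM in DMSO (median 81.6) and 74 to 84 CPM in PBKi (median 75.9). The ranges overlapped, and the log2 fold change was -0.12 (SE 0.064, adjusted p = 0.157, edgeR).

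8 of the 9 spindle proteins were called lower. HMMR (ENSG00000072571, chr5:162887209-162918947, plus strand), a hyaluronan receptor that also binds spindle microtubules, lay at 194 to 289 CPM in DMSO (median 240) and 150 to 205 CPM in PBKi (median 178). 1 DMSO sample, replicate 5, fell within the PBKi range. The log2 fold change was -0.45 (SE 0.087, adjusted p = 0.000493, edgeR). NUSAP1, which bundles microtubules near chromosomes, lay at 351 to 415 CPM in DMSO (median 361) and 251 to 301 CPM in PBKi (median 279). It showed no overlap and a log2 fold change of -0.43 (SE 0.063, adjusted p = 3.31e-05, edgeR).

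DLGAP5, which stabilises kinetochore fibres, was lower at -0.34, PRC1, which crosslinks the central spindle, at -0.31, and CKAP2 at -0.30. ASPM, which focuses spindle poles, and the microtubule polymerase CKAP5 were each lower at -0.28. TPX2, an activator of Aurora A, was called at -0.15 (adjusted p = 0.0255, edgeR), and that call was lost when any of 4 samples was left out. TACC3, a partner of CKAP5 on kinetochore fibres, was not called. It lay at 108 to 134 CPM in DMSO (median 111) and 96.1 to 117 CPM in PBKi (median 105), ranges that overlapped. Its log2 fold change was -0.12 (SE 0.064, adjusted p = 0.133, edgeR).

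All 3 chromosomal passenger genes were called lower. BIRC5 (ENSG00000089685, chr17:76210267-76221717, plus strand), or survivin, which docks the passenger complex on centromeres, lay at 216 to 303 CPM in DMSO (median 264) and 174 to 227 CPM in PBKi (median 199). The ranges met at 1 sample of each group, and the log2 fold change was -0.41 (SE 0.079, adjusted p = 0.000491, edgeR). CDCA8, or borealin, lay at 88.7 to 95.9 CPM in DMSO (median 90.2) and 69.5 to 85.8 CPM in PBKi (median 74.7). The groups were apart, with a log2 fold change of -0.26 (SE 0.056, adjusted p = 0.00128, edgeR).

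INCENP, the scaffold of the complex, lay at 93.8 to 129 CPM in DMSO (median 99.8) and 78.6 to 104 CPM in PBKi (median 87.3). Only 1 PBKi sample, replicate 5, rose into the DMSO range, where it lay above 5 DMSO samples. The log2 fold change was -0.23 (SE 0.078, adjusted p = 0.0233, edgeR), and the call was lost without PBKi replicate 2 or without PBKi replicate 3 (adjusted p = 0.0635 and 0.0613, edgeR).

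Both cytokinesis genes were called lower. ECT2 (ENSG00000114346, chr3:172468472-172539264, plus strand), which activates RhoA at the cleavage plane, lay at 332 to 431 CPM in DMSO (median 400.1) and 254 to 318 CPM in PBKi (median 275). It showed no overlap and a log2 fold change of -0.48 (SE 0.069, adjusted p = 2.9e-05, edgeR). ANLN, or anillin, a scaffold of the contractile ring, lay at 207 to 242 CPM in DMSO (median 239) and 179 to 208 CPM in PBKi (median 187). Its ranges met at 1 sample of each group, both numbered replicate 5, and its log2 fold change was -0.29 (SE 0.054, adjusted p = 0.000368, edgeR).

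6 of the 7 chromosome structure genes were called lower, and all 5 subunits of condensin I were among them. NCAPH (ENSG00000121152, chr2:97001504-97042829, plus strand), its kleisin subunit, lay at 101 to 111 CPM in DMSO (median 105) and 69.2 to 86.8 CPM in PBKi (median 80.4). With no overlap, the log2 fold change was -0.41 (SE 0.059, adjusted p = 2.44e-05, edgeR). SMC4, an ATPase shared by both condensins, lay at 433 to 508 CPM in DMSO (median 469.9) and 332 to 395 CPM in PBKi (median 344). This was also without overlap, at a log2 fold change of -0.41 (SE 0.055, adjusted p = 1.34e-05, edgeR).

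NCAPD2 was lower at -0.31, SMC2 at -0.24 and NCAPG at -0.21. Per kilobase of exon the condensin I genes spanned 16.1 CPM for NCAPH to 62.3 CPM for NCAPD2 in DMSO, and 12.1 to 50.3 CPM for the same genes in PBKi. TOP2A, which untangles sister DNA, was lower at -0.29. For NCAPG, 33.7% of exon bases are shared with another counted gene, as are 22% for SMC4, 34.3% for PRC1, 15.9% for SGO1, 15.2% for NUSAP1 and 14% for KIFC1. Reads there could be lost or assigned to either gene.

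MKI67, which coats mitotic chromosomes and is widely used as a proliferation marker, had the log2 fold change nearest 0 of the 49. It lay at 206 to 303 CPM in DMSO (median 235) and 187 to 299 CPM in PBKi (median 232). The ranges covered nearly the same span, and PBKi was the lower in only 3 of 6 same-numbered pairs. The log2 fold change was -0.05 (SE 0.11, adjusted p = 0.763, edgeR), with a 95% interval of -0.27 to 0.17, and its sign turned under scaling to total counts and without any of 3 samples.

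All 6 anaphase control genes were called lower. MAD2L1 (ENSG00000164109, chr4:120976778-120988013, minus strand), which holds back anaphase until kinetochores are attached, lay at 84 to 150 CPM in DMSO (median 107) and 64.7 to 96.1 CPM in PBKi (median 74). The ranges overlapped at 1 PBKi sample, replicate 1, which lay above 3 DMSO samples. The log2 fold change was -0.54 (SE 0.12, adjusted p = 0.0018, edgeR). PTTG1, or securin, which inhibits separase, lay at 160 to 194 CPM in DMSO (median 164) and 110 to 132 CPM in PBKi (median 125). Here the groups were apart, at a log2 fold change of -0.48 (SE 0.064, adjusted p = 1.32e-05, edgeR).

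SGO1, which shields centromeric cohesin, was lower at -0.34, CDC20, the activator of the anaphase-promoting complex, at -0.32, and ESPL1, or separase itself, at -0.22. For CDC20, 12.4% of the read-long stretches recur at other places, chiefly in its copy CDC20P1. UBE2C, the ubiquitin-conjugating enzyme that works with the complex, changed least of the role. It lay at 96.8 to 110 CPM in DMSO (median 102) and 80.7 to 98 CPM in PBKi (median 87.8). The ranges overlapped, and the log2 fold change was -0.21 (SE 0.06, adjusted p = 0.00868, edgeR).

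A two-sided exact permutation test on log2 CPM, over all ways of dividing the 12 samples into groups of 6, gave 0.00216, the smallest p it can give, for each of the 26 members whose groups did not overlap. That value follows from the separation itself, which held for 9.68% of all genes tested, and adds no further support. Among the called members whose groups overlapped, the permutation p, not adjusted for the number of genes, ran from 0.00433, for genes such as HMMR, BIRC5 and ANLN, to 0.0195 for INCENP. For the members not called it was 0.0931 for TACC3, 0.102 for KIF20B, 0.167 for CENPM, 0.286 for CENPF and 0.745 for MKI67.

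Samples numbered 1 to 3 and those numbered 4 to 6 differed from each other within a group, a division known from earlier results of these data that no label calls a batch. In DMSO, all of replicates 1 to 3 lay above all of replicates 4 to 6 for 13 members, among them MAD2L1, NUF2, HMMR, BIRC5 and ECT2, and below them for 7, among them MKI67, CENPF and CKAP5. In PBKi those counts were 0 and 7. Over all genes tested, the shares were 13.5% and 15.7% in DMSO and 10.5% and 11.1% in PBKi. MAD2L1 was at 119 to 150 CPM in DMSO replicates 1 to 3 and at 84 to 95.8 CPM in replicates 4 to 6, while MKI67 was at 206 to 213 CPM and 256 to 303 CPM.

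The fall was measured in both sets. Within replicates 1 to 3, 48 of 49 log2 fold changes were below 0 (all but MKI67), with a median of -0.35 and 43 called lower. Over all genes, that fit called 3184 lower and 3376 higher. Within replicates 4 to 6, all 49 were below 0, with a median of -0.28 and 26 called lower. The calls over all genes were also fewer there, at 1216 lower and 1303 higher. 39 members had the larger fall in replicates 1 to 3. The difference between the sets, tested as an interaction in edgeR, passed an adjusted p of 0.05 for 0 members and for 0 of all genes tested, and the smallest adjusted p of a member was 0.927. At an unadjusted p under 0.05 it was 1 of the 49 members, and the share of all genes at that threshold was not computed.

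**Figure D3:**
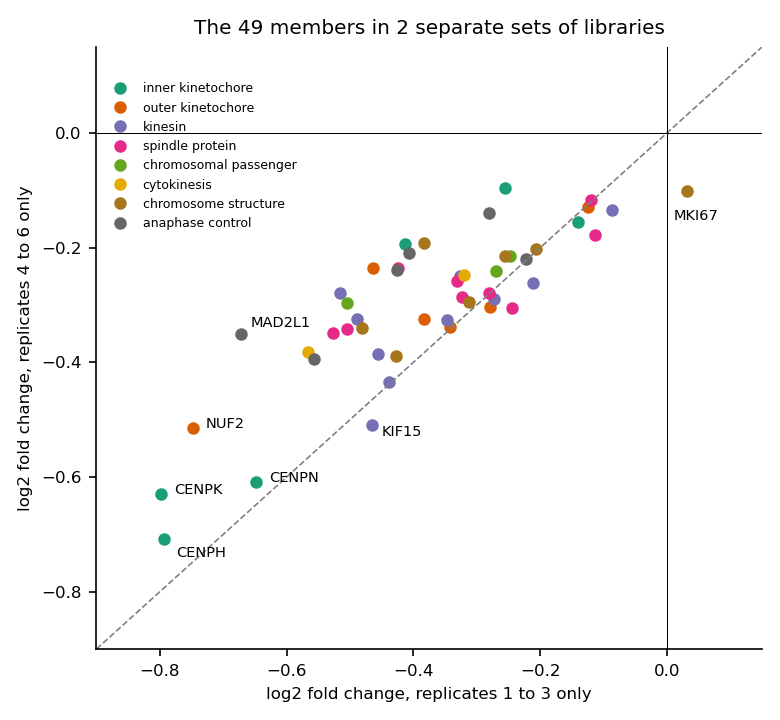
Log2 fold change of each member, PBKi against DMSO, fitted in replicates 1 to 3 alone (x axis) and in replicates 4 to 6 alone (y axis), with colours for roles and a dashed line of equality. 39 of the 49 points lie above the line, where the fall is larger in replicates 1 to 3, and MKI67 is the single point right of 0.

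Exon length and expression level went with the signed log2 fold change only weakly. Across the 49 members, which share the same 12 libraries, Spearman's rho of log2 fold change was 0.25 with exon length and 0.14 with mean level, and over all genes tested it was 0.09 (14013 genes with a length) and -0.15. The 12 shortest members (at most 3554 exon bases) had a median of -0.33 and the 12 longest (at least 6576) a median of -0.25. The median coefficient of variation between the 6 samples was 7.51% in DMSO and 8.21% in PBKi.

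Genes of the same machinery that are not members were examined as lists. Of 103 other kinetochore, cohesin, condensin, anaphase-promoting complex and spindle genes, 101 were tested, 61 were called lower and 3 higher, with a median log2 fold change of -0.22. The closest to the members were the other kinetochore genes, with 21 of 27 called lower and a median of -0.31. KNTC1, a subunit of the complex that recruits dynein to kinetochores, was the lowest of them at -0.60, and CENPB, which binds centromeric DNA, the highest at 0.18 without being called (adjusted p = 0.152, edgeR). All 3 further condensin genes were called lower, from -0.60 for NCAPD3 to -0.26 for NCAPG2.

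The other spindle and cytokinesis genes had 15 of 23 called lower (median -0.23), from DEPDC1B at -0.53 to CLASP1 at 0.15, the latter not called. Of the gamma-tubulin and augmin genes, which nucleate microtubules, 9 of 13 tested were called lower (median -0.26), from HAUS7 at -0.64, a gene of only about 2.11 CPM in DMSO, to TUBG1 at 0.01, which was not called.

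The cohesin and the anaphase-promoting complex lists had the medians nearest 0 of the 8 related lists. Among 14 cohesin genes 6 were called lower and 1 higher (median -0.11), from the cohesin kleisin RAD21 at -0.38 to the cohesin loader NIPBL at 0.26 (100.4 ± 13.7 CPM in DMSO and 120 ± 13.6 CPM in PBKi, SD, n = 6 each). Of 21 anaphase-promoting complex and checkpoint genes, 7 were called lower and 2 higher (median -0.10). The lowest was FBXO5, an inhibitor of the complex, at -0.34, and the called rises were 2 of its subunits, ANAPC13 at 0.18 and CDC16 at 0.17.

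The mitotic kinases and cyclins, which the member list leaves out by rule, had 12 of 13 called lower (median -0.39), from the checkpoint kinase TTK at -0.58 to CCNF at -0.09, which was not called. The MCM and origin licensing list, which also holds the replication genes PCNA, GINS1 and GINS2, had 8 of 13 called lower (median -0.28). Its genes act in G1 and S phase, and ran from PCNA at -0.46 to ORC1 at -0.10, which was not called. Differences between lists were not tested.

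**Figure D4:**
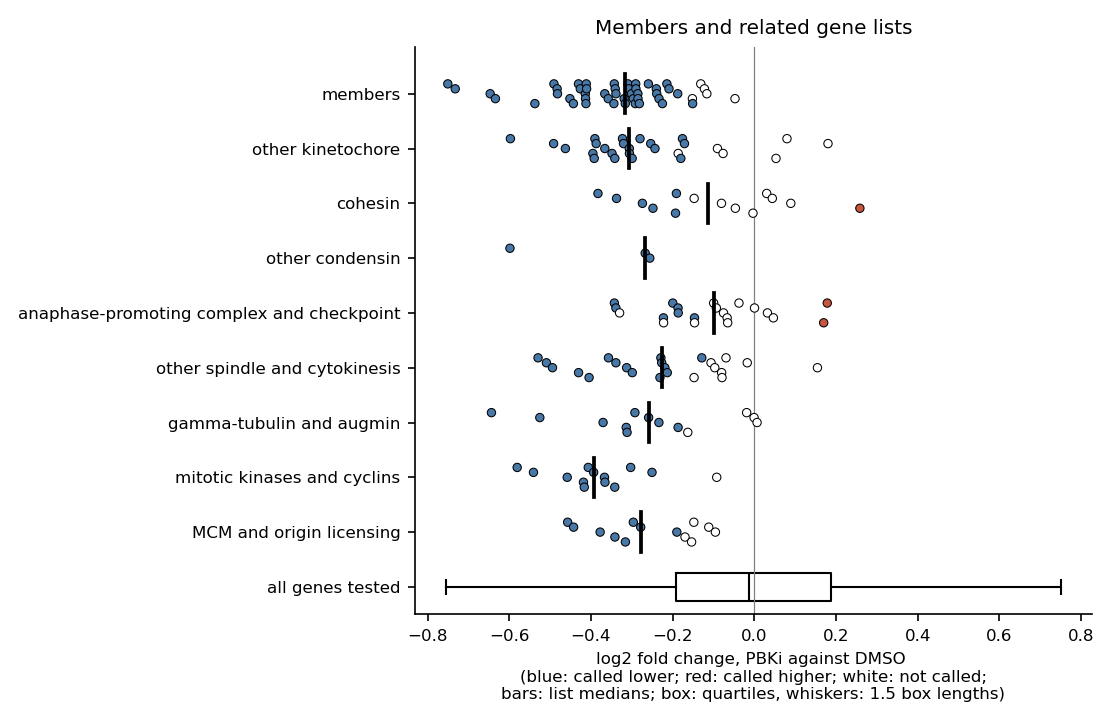
Log2 fold change, PBKi against DMSO, of each gene of the member list and of 8 related lists, with list medians as bars and all genes tested as a box. Member points lie between -0.75 and -0.05, and the called rises (red) are NIPBL, ANAPC13 and CDC16.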

How the data were processed

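RNAseq of 12 C4-2 samples (6 DMSO, 6 PBKi) was analysed. Raw counts per gene and lane were deposited by the authors, made with TopHat2 2.0.4 (GRCh37) and HTSeq 0.5.3p9. Neither the strand setting nor the overlap mode was given in the sources used here, and the label protocol speaks of flow sorted cells. Counts were summed over the 3 or 4 lanes of each sample. Genes reaching 10 counts in 6 or more samples were tested with TMM and edgeR 4.0.16 (R 4.3.3), quasi-likelihood test, without covariates, Benjamini-Hochberg adjusted over 14505 genes. The procedure was tested on simulated data. Depth was 9663203 to 28029908 reads on genes, and members had 210 to 14106 counts per sample.

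Members, roles, lists and motifs were chosen with earlier results of these data known. In each role the 2 lowest and the highest member were given in full and every other with its fold change, and from each related list the lowest, the highest and any called higher. Coordinates and exon lengths came from GENCODE 44 on GRCh37, later than the authors' annotation. Alternatives were DESeq2 1.42.0, limma-voom 3.58.1, RLE and total count scaling, 2 count filters, lanes 6 to 8, a replicate block, a replicate set covariate, each set alone, stricter thresholds and leaving out samples. SciPy 1.17.1 gave permutation tests. The siPBK arm was not analysed here.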

Additional observations from a re-analysis of the deposited data

Results flagged for a closer look

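Among 98 groups of 6 samples (49 members in DMSO and in PBKi), 7 held a sample far from the others of its group, measured as its gap to the nearest sample over the range of the group, and chance flags about 1 group in 20. 6 of the 7 were replicate 5 of either group. In DMSO, replicate 5 was the highest for INCENP (129 CPM, next 102) and ESPL1 (82.5 CPM, next 73.6) and the lowest for ANLN (207 CPM, next 233), and replicate 6 was the highest for KIF20B (101 CPM, next 84.8). In PBKi, replicate 5 was the highest for SMC2 (161 CPM, next 141), SMC4 (395 CPM, next 353) and ESPL1 (70.9 CPM, next 61.8). DMSO replicate 5 was the shallowest library, with 9663203 reads on genes and 3 lanes, while PBKi replicate 5 was not among the extremes of its group in depth. Their part in these values was not tested.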

How the results depend on the processing

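The count of members called lower (44) stayed between 40 and 45 under every alternative but 2. It was 26 with replicates 4 to 6 only, where 18 members lost their call, and 5 when a log2 fold change of 0.5 or more in size was also required. No alternative called a member higher. Leaving out 1 sample at a time gave 41 to 45 members called lower and a members' median of -0.33 to -0.29, with 2586 to 3213 genes called lower and 2531 to 3341 higher among all genes. Among all genes, 3125 were called lower and 2921 higher as reported, 1216 and 1303 with replicates 4 to 6 only, and 626 and 1278 with the fold minimum. 2073 were called lower at an adjusted p under 0.01. Without PBKi replicates 3 and 6, an alternative chosen after seeing the data, 2004 were called lower, and CENPI, INCENP, TPX2 and UBE2C lost their call among the members.

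MKI67, never called, turned positive at 0.0033 under total count scaling, 0.031 in replicates 1 to 3 only, 0.024 without DMSO replicate 5, 0.017 without DMSO replicate 6 and 0.023 without PBKi replicate 1, and its range over the samples left out was -0.11 to 0.024. Total count scaling moved the members' median to -0.27 and gave 2402 genes lower and 3602 higher among all. CENPI lost its call without DMSO replicate 1 or 3 or PBKi replicate 2, 3, 4 or 6, and TPX2 without DMSO replicate 4 or PBKi replicate 2, 3 or 6.

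With a replicate block 45 members were called lower (median -0.32), CENPF being added (adjusted p = 0.0212, edgeR), and 3803 genes lower and 3485 higher among all. Same-numbered samples correlated in their deviations from the group means at 0.0887 to 0.299, 5 of the 6 values being over 0.1, and in 3 of 6 pairs each sample correlated best with its own number. As replicate 5 did not reach 0.1 and no label ties the numbers to a shared culture, the samples are not treated as paired. The correlations are a hint of pairing, which these data do not settle.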
